A study of Mus musculus with 8 samples.

Results

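The genes described here are 38 genes of the B cell antigen receptor and of mature B cells. They cover the receptor's signal chains, the kinases and adaptors below it, B cell surface proteins, B cell transcription factors, activation molecules, the RP105 complex and proteins of marginal zone and follicular B cells. They were chosen by name, and every probe was taken whose gene symbol in the platform annotation was one of these names. Of the 38 genes, 32 had at least 1 listed probe (56 probes in all, out of 25697 on the array), and the array named 16593 genes altogether. Blr1, an older symbol, was matched to its current name Cxcr5. The genes Lyn, Bank1, Cd72, Siglecg, Ikzf3 and Cd38 had no listed probe under these names and are not analysed here.

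RNA of whole spleens was hybridised to 8 MouseRef-8 v2.0 arrays from Illumina, on which beads carrying 1 kind of oligonucleotide report bound biotin-labelled RNA as brightness. All recipients were B6D2F1J mice, hybrids of a C57BL/6 and a DBA/2 parent, aged 10 weeks, and all spleens were taken at day 14 after donor cells were engrafted. The groups differ in the donor, which was DBA for 4 arrays and B10.D2 for the other 4. In this model donor cells respond to the F1 host, a lupus-like immune response, and the comparison asks how the recipient spleen differs with the donor strain. B10.D2 is not a parental strain of this hybrid, and the labels give neither the number nor the kind of cells transferred. No spleen without donor cells was analysed here, and the labels do not say whether each replicate came from its own mouse. A p-value here therefore reflects the spread among the arrays of a group, part of which may be technical.

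A B cell binds antigen through membrane immunoglobulin, which has almost no part inside the cell and signals through the paired chains Cd79a and Cd79b. Src-family kinases such as Blk phosphorylate these chains, Syk docks on them, and the adaptor Blnk then brings Btk to Plcg2, which starts calcium and protein kinase C signalling. In the spleen most mature B cells recirculate through follicles, guided by the chemokine receptor Cxcr5, while marginal zone B cells stay beside the marginal sinus, depend on Notch2 and carry high complement receptor and CD1d. In whole spleen RNA, fewer B cells and less of an RNA per B cell cannot be told apart.

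The windows before 3 of these genes are printed because they carry short motifs of the transcription factors on the list. RefSeq windows of GRCm38.p6, reaching from 250 bases before a gene's start to 50 bases after it, were held for 28 of the 38 genes. The first window, shown for the receptor chain with the lowest values under the DBA donor, is that of Cd79a at chr7:24897247-24897546 on the plus strand. Its capitals mark TTCCTC, the reverse complement of GAGGAA, a core bound by Spib and its relative PU.1, 140 bases before the start. The second is Cd22 at chr7:30878979-30879278 on the minus strand, the window with an Ebf1 motif nearest its start, 49 bases before it. The third is Blnk at chr19:40994172-40994471 on the minus strand, shown as the signalling gene with the most positive difference, with the octamer bound by Pou2f2, here as ATTTGCAT, 130 bases before the start.
Cd79a: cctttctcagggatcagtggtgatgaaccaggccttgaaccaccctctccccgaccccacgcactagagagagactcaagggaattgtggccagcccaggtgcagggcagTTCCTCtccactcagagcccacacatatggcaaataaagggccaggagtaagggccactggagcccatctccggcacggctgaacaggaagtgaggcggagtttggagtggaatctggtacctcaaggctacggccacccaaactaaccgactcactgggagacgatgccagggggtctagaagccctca
Cd22: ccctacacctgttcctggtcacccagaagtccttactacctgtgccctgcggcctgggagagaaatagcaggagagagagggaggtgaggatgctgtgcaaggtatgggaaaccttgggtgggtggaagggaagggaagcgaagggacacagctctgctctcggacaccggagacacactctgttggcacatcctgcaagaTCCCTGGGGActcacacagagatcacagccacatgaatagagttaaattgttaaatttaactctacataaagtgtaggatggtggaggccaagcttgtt
Blnk: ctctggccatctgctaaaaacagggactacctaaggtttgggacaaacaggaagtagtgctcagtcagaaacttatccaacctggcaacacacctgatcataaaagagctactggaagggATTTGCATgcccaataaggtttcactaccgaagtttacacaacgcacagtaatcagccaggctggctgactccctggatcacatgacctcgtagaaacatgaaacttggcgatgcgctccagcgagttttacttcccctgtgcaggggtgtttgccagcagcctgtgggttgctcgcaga
Both strands were searched for each motif, and each of these 3 windows held only the motif in capitals. The Ebf1 motif, TCCC and GGGA with 2 bases of any kind between them and the same on either strand, lay in the windows of 2 of the 28 genes (Cd22 and Vav3), or 7.143%, against 1.062% of all 27025 genes with a window. The octamer ATGCAAAT lay in 1 of the 28 (Blnk), against 1.969% of all genes. GAGGAA lay in 13 of the 28, or 46.429%, against 31.253% of all genes. A match describes the letters of the window and is not a shown binding site.

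1 array stood apart before any comparison. B10.D2 donor replicate 4 correlated at a mean of 0.9826 with the other arrays of its group, against 0.9873 to 0.9907 for the other 7 arrays. All 9 exocrine pancreas genes listed on the array were detected on it, 7 of them on that array alone, and their summed normalized level was 10082 there against 501 to 595 on the other B10.D2 donor arrays and 559 to 672 on the DBA donor arrays. The difference of each tested B cell gene is therefore also given without it. Between 12601 and 13320 probes were detected per array, and median raw intensity was 126.4 to 142.1 on the B10.D2 donor arrays and 113.2 to 124.8 on the DBA donor arrays.

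Of the 32 B cell genes with a listed probe, 30 were well enough above background to be tested, and 28 of these were detected on all 8 arrays. Most of the B cell genes lay slightly lower in spleens with a DBA donor, and none passed the test. Of the 30 genes tested, 26 had a negative difference (DBA donor minus B10.D2 donor, normalized log2 intensity), where 54% of all 9028 named genes tested did. The median difference of the 30 genes was -0.15, against -0.02 for all named genes. No gene of the 30 reached an adjusted p under 0.05 in limma, where 9 of 12950 probes (0.0695%) and 7 named genes (0.0775%) did. At an unadjusted limma p under 0.05, Cd79a, Blk, Cd86 and Cd1d1 were lower, 4 of 30 genes against a background of 8.15%, and Ebf1 was higher, 1 of 30 against 6.16%. The groups did not overlap for 1 gene on the higher side, Ebf1 (background 3.69%), and for 1 on the lower side, Cd86 (background 4.76%). The 4 genes with a positive difference were Blnk, Pik3ap1, Ebf1 and Cd83.

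**Figure D1:**
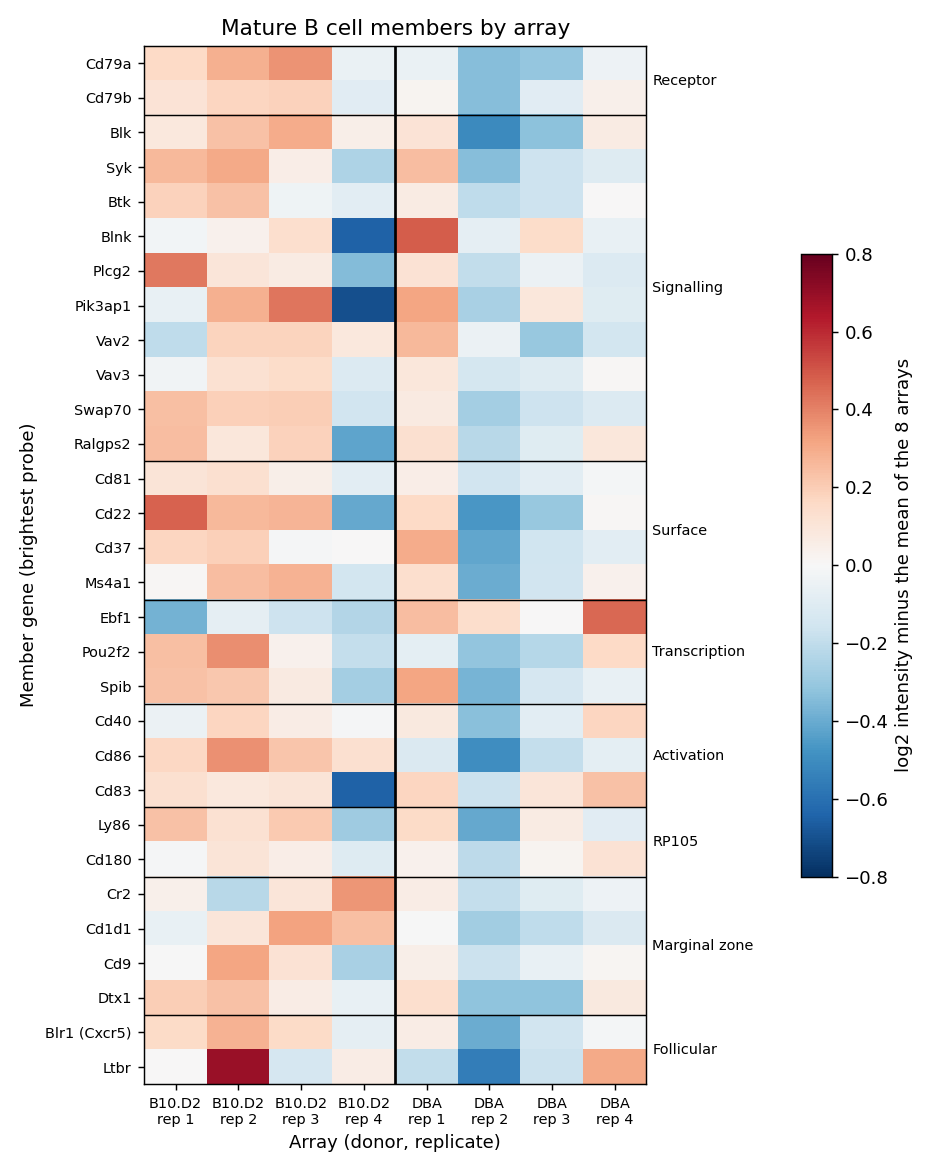
Normalized log2 intensity of the brightest probe of each of the 30 tested genes on each of the 8 arrays, minus the gene's mean over the 8 arrays (colour), with genes ordered by role. DBA donor replicate 2 was the lowest of its group for 28 of the 30 genes and B10.D2 donor replicate 4 for 23, while Ebf1 ran from 5.12 to 5.43 on the B10.D2 donor arrays and from 5.50 to 5.96 on the DBA donor arrays.

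The plot of all tested genes by array shows that 1 array in each group ran low. B10.D2 donor replicate 4 was the lowest of its group for 23 of the 30 genes, against 36.9% of all named genes. The median of its difference from the mean of the other 3 arrays of its group was -0.26 over the 30 genes and -0.03 over all named genes. DBA donor replicate 2 was the lowest of its group for 28 of the 30, against 35.2% of all named genes. DBA donor replicate 1 was the highest of its group for 21 of the 30, against 2576 of all 9028 named genes. Without B10.D2 donor replicate 4, 28 of 30 differences were negative, their median was -0.24 and 9 genes were lower at an unadjusted p under 0.05 (11% of all named genes were), but limma again called none. Those 9 were Cd79a, Cd79b, Blk, Swap70, Cd22, Cd86, Pou2f2, Cd1d1 and Blr1. Without DBA donor replicate 2 the count of negative differences was 23, the median -0.09 and the count lower at an unadjusted p under 0.05 was 3, against 5.89% of all named genes. With both arrays left out, a choice made after seeing the data, 25 differences were negative, the median was -0.15 and 5 genes (Cd79a, Swap70, Cd86, Cd22 and Blr1) were lower at an unadjusted p under 0.05, against 8.61% of all named genes.

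Some marker lists of other cells stood apart on these arrays. On B10.D2 donor replicate 4 the summed level of 8 T cell genes was 4801, against 6323 to 6799 on the other arrays of the group, and that of the plasma cell list was 7961, against 15010 to 21144. The proliferation list stood at 7071 there, against 4301 to 4904. On DBA donor replicate 2 the T cell sum was 4657, against 5493 to 6464 on the other DBA donor arrays, and the proliferation sum was 7968, against 5172 to 5700, while the plasma cell sum of 18561 lay within the 17003 to 21433 of the others. Of the 8 plasma cell genes Prdm1 was not detected on any array. The other 7 were tested with all arrays, with 6 positive differences and a median of 0.41. Mzb1, the gene at that median, differed by 0.10 without B10.D2 donor replicate 4. The differences of the rest of the list without that array are not given here, and Mzb1 alone does not stand for the list. The plasma cell sum ran from 7961 to 21144 under the B10.D2 donor and from 17003 to 21433 under the DBA donor. The germinal centre list, with 6 of its 7 genes listed and Rgs13 not detected on any array, ran from 1570 to 2792 and from 2053 to 2816. Its lowest sums were on B10.D2 donor replicate 4 (2506 to 2792 on the others) and DBA donor replicate 2 (2570 to 2816 on the others). All 8 T cell genes were detected, and their sum ran from 4801 to 6799 and from 4657 to 6464. The macrophage and monocyte list, with 5 of 8 genes listed and Itgam not detected on any array, ran from 7966 to 10524 and from 8477 to 10286. The dendritic cell list, with Flt3 and Clec9a not detected on any array, ran from 453 to 580 and from 349 to 499. Of its 6 genes 2 were tested, Zbtb46 at -0.02 and the plasmacytoid lectin gene Siglech at -0.62 with overlapping groups (limma adjusted p = 0.190). The neutrophil list ran from 14624 to 19293 and from 12045 to 21691. The stroma and endothelium list ran from 5408 to 6253 and from 4963 to 5751. The erythroid list ran from 45183 to 54048 and from 43292 to 52586. Its highest B10.D2 donor sum was on replicate 4 (45183 to 52916 on the others). Its highest DBA donor sum was on replicate 2 (43292 to 49807 on the others). Hba-a1 in it read 14.64 on all 8 arrays. Klf1 read 11.28 on that B10.D2 donor array (9.79 to 10.33 on the others). It read 11.08 on that DBA donor array (9.63 to 10.47 on the others). Alas2 and Epor were also highest of their group on these arrays, while Slc4a1 was so on DBA donor replicate 2 alone. The part of these cells in the B cell gene differences was not tested.

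**Figure D2:**
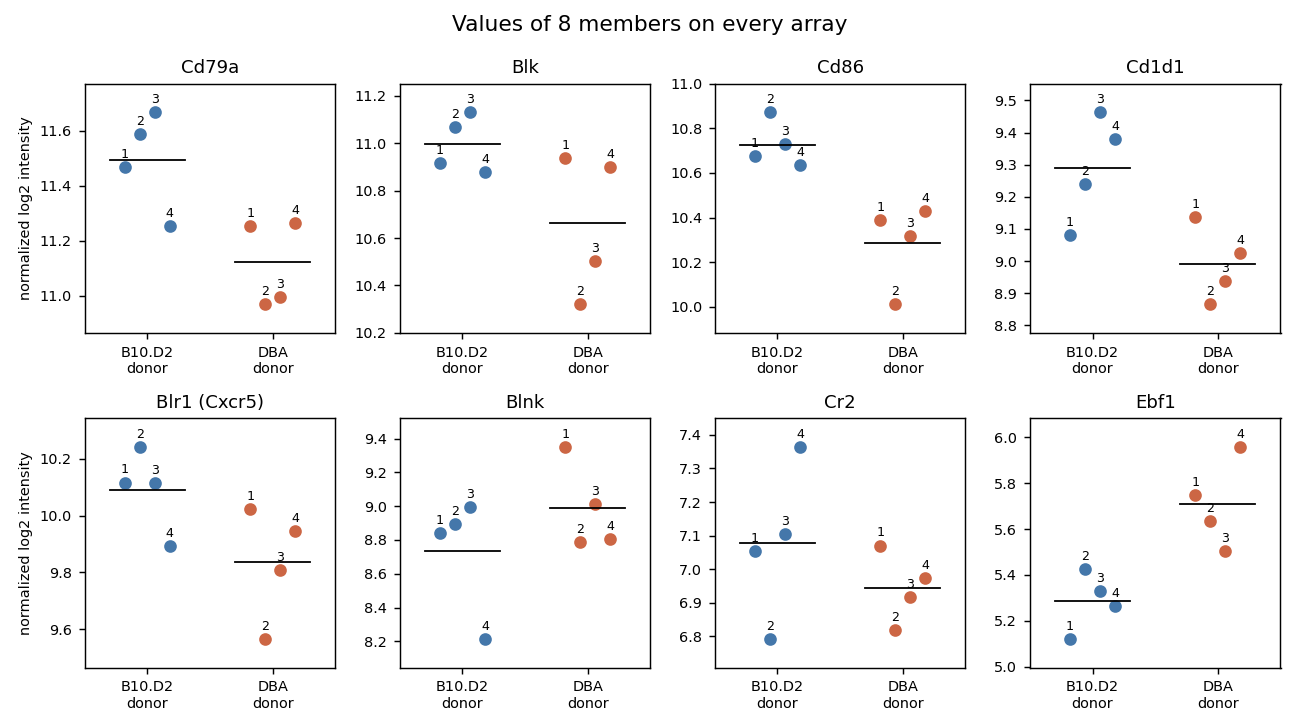
Normalized log2 intensity of 8 genes on every array, with replicate numbers beside the points and bars at the group means (each panel has its own vertical range). Cd86 did not overlap between the groups and was lower with the DBA donor, Ebf1 did not overlap and was higher, and B10.D2 donor replicate 4 lay at 11.25 for Cd79a, within the DBA donor range of 10.97 to 11.27.

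Of the 2 receptor chains, Cd79a, which with its partner carries the signal of membrane immunoglobulin, read 11.47, 11.59, 11.67 and 11.25 on B10.D2 donor replicates 1 to 4 and 11.25, 10.97, 11.00 and 11.27 on DBA donor replicates 1 to 4. The 3 highest values were B10.D2 donor replicates 1 to 3, and the groups overlapped only through B10.D2 donor replicate 4. The difference was -0.37 ± 0.12 (SE), or 1.3-fold, with a 95% interval of -0.63 to -0.11 and a limma adjusted p of 0.219. Its unadjusted p was under 0.05 in all 20 alternative settings, of which the changed threshold repeats the main p. It was -0.46 without B10.D2 donor replicate 4. With DBA donor replicate 2 left out it was -0.32.

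Cd79b, the other chain, read 12.87, 12.94, 12.95 and 12.67 under the B10.D2 donor and 12.78, 12.42, 12.67 and 12.81 under the DBA donor. The groups overlapped, and its difference of -0.19 had an interval of -0.43 to 0.06 (limma adjusted p = 0.473). Its second probe differed by -0.11. The Cd79b difference was -0.25 when B10.D2 donor replicate 4 was left out.

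The signalling genes were divided. Blk, a Src-family kinase found mainly in B cells, read 10.92, 11.07, 11.13 and 10.88 under the B10.D2 donor and 10.94, 10.32, 10.50 and 10.90 under the DBA donor. DBA donor replicates 2 and 3 were the low arrays, while replicates 1 and 4 lay within the B10.D2 donor range. The Blk difference was -0.33 ± 0.14 (SE), with a limma adjusted p of 0.324, and its other tested probes differed by -0.44 and -0.20. The Blk difference was -0.38 without B10.D2 donor replicate 4 and -0.22 when DBA donor replicate 2 was left out instead.

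Syk, the kinase that docks on the phosphorylated chains and is also used by myeloid cells, read 5.91, 5.95, 5.70 and 5.40 under the B10.D2 donor and 5.89, 5.31, 5.48 and 5.54 under the DBA donor. The groups overlapped, with a difference of -0.18 and an interval of -0.52 to 0.15 (limma adjusted p = 0.624). Btk, the kinase that activates Plcg2, read 10.99, 11.04, 10.77 and 10.72 against 10.87, 10.61, 10.64 and 10.81. Its groups overlapped too, with a difference of -0.15 and an interval of -0.39 to 0.09 (limma adjusted p = 0.557). Leaving out B10.D2 donor replicate 4 gave -0.29 for Syk and -0.20 for Btk.

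Blnk, the adaptor that joins Syk to Btk and Plcg2, had the most positive difference among the signalling genes, 0.25, with an interval of -0.15 to 0.66 (limma adjusted p = 0.565). Its second probe differed by 0.23. Blnk was lowest of all arrays on B10.D2 donor replicate 4, at 8.21 against 8.84 to 8.99 on the other arrays of that group, and the difference without that array was 0.08. Pik3ap1, an adaptor that links the receptor to PI3 kinase, behaved alike on that array, at 5.54 against 6.18 to 6.67, and its difference of 0.03 became -0.20 without it. Plcg2, the phospholipase, differed by -0.12, and its sign depended on 1 array, with a value of 0.0021 when B10.D2 donor replicate 1 was left out and -0.26 when replicate 4 of that group was.

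Among the other signalling genes, Swap70, a protein that acts on Rac and the cytoskeleton in activated B cells, differed by -0.24 on its brightest probe (limma adjusted p = 0.381). Its other 3 tested probes differed by -0.16, 0.01 and -0.03. Ralgps2, an exchange factor for Ral, differed by -0.05 on its brightest probe and by -0.21 and 0.01 on the others. The exchange factors Vav2 and Vav3 differed by -0.12 and -0.07, and Vav2 was detected on 7 of the 8 arrays. With B10.D2 donor replicate 4 left out, Swap70 differed by -0.33, Ralgps2 by -0.20, Vav2 by -0.11 and Vav3 by -0.11. Over the 10 signalling genes tested, 8 differences were negative, the median was -0.12 and the range -0.33 to 0.25. Leaving out B10.D2 donor replicate 4, 9 were negative and the median was -0.20.

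All 4 B cell surface proteins tested had negative differences, with a median of -0.19. Ms4a1, which encodes CD20, read 7.96, 8.20, 8.23 and 7.80 under the B10.D2 donor and 8.08, 7.55, 7.80 and 7.98 under the DBA donor. The groups overlapped, with DBA donor replicate 2 lowest of all, and the difference was -0.19 with an interval of -0.50 to 0.11 (limma adjusted p = 0.559), or -0.28 without B10.D2 donor replicate 4. Cd22, a lectin that restrains receptor signalling, differed by -0.30 with an interval of -0.73 to 0.13, and its B10.D2 donor replicate 4 value of 9.85 was under the 10.52 to 10.73 read on its companions. The Cd22 difference without that array was -0.49, with an unadjusted limma p of 0.0085. Its second probe differed by -0.31 and its dimmest by 0.14. The tetraspanins Cd37 and Cd81, membrane proteins that organise other surface proteins, differed by -0.18 and -0.10, and by -0.21 and -0.14 without B10.D2 donor replicate 4.

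The 3 transcription factors tested had differences of both signs. Ebf1, which sets up B cell identity early in development and is kept in mature B cells, read 5.12, 5.43, 5.33 and 5.27 under the B10.D2 donor and 5.75, 5.64, 5.50 and 5.96 under the DBA donor. Every DBA donor array lay above every B10.D2 donor array, and the difference was 0.42 ± 0.11 (SE), with an interval of 0.17 to 0.68 and a limma adjusted p of 0.186. The probe was dim, with raw intensities of 131.4, 160.3, 141.7 and 145.5 under the B10.D2 donor and 134.9, 143.9, 124.6 and 152.5 under the DBA donor, and on that raw scale the groups overlapped. The highest raw value, 160.3, was under the B10.D2 donor and the lowest, 124.6, under the DBA donor, whose arrays had the lower raw medians. The positive sign therefore depends on normalization between arrays, which every alternative setting also applied. In all 20 of these settings the Ebf1 difference was positive with an unadjusted p under 0.05, at sizes of 0.14 to 0.50. It was 0.41 where B10.D2 donor replicate 4 was left out.

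Pax5, the factor that holds cells in the B lineage, was not well above background on any of the 8 arrays. Its raw intensities were 123.0, 127.0, 122.8 and 121.1 under the B10.D2 donor and 105.9, 113.7, 102.2 and 113.8 under the DBA donor, and no difference is given. Pou2f2, the octamer factor Oct-2, differed by -0.23 (limma adjusted p = 0.493), and Spib, an Ets factor of B cells and plasmacytoid dendritic cells, by -0.12 (limma adjusted p = 0.761). The Pou2f2 difference was -0.33 without B10.D2 donor replicate 4, and that of Spib was then -0.24.

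Cd86, the costimulatory ligand for CD28 on activated B cells, dendritic cells and macrophages, had the most negative difference of the 30 genes with all arrays and the brightest probes. Without B10.D2 donor replicate 4 it was -0.48, against -0.49 for Cd22, and with probes averaged per gene it was -0.21, against -0.37 for Cd79a. It read 10.68, 10.87, 10.73 and 10.63 under the B10.D2 donor and 10.39, 10.01, 10.32 and 10.43 under the DBA donor, so that every DBA donor array lay below every B10.D2 donor array. The difference was -0.44 ± 0.11 (SE), or 1.36-fold, with an interval of -0.68 to -0.20 and a limma adjusted p of 0.169. The second probe gave -0.38, again with no overlap, while the third and dimmest gave 0.20 with overlap. Cd86 is not a B cell gene alone, and the part of dendritic cells and macrophages, whose marker sums are given above, was not tested. Of the dendritic cell list only Siglech and Zbtb46 were detected on 4 or more arrays. Siglech, a plasmacytoid gene, was the brightest, at 7.44 to 8.51, so that sum says little about other dendritic cells.

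The other activation genes differed less. Cd40, the receptor for T cell help through CD40 ligand, differed by -0.08 on its brightest probe, and its 4 tested probes ran from -0.10 to -0.02. The brightest differed by -0.10 without B10.D2 donor replicate 4. Cd83, a marker of activated B cells and mature dendritic cells, differed by 0.17, with B10.D2 donor replicate 4 at 10.30 against 11.03 to 11.08 on the rest of its group. Without that array the Cd83 difference was -0.02. Cd180, which encodes the Toll-like receptor relative RP105, differed by -0.02, and Ly86, which encodes its partner MD-1, by -0.14. The Cd180 difference was -0.06 without B10.D2 donor replicate 4. The Ly86 difference was -0.26 without B10.D2 donor replicate 4, and -0.03 when DBA donor replicate 2 was left out instead.

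Among the marginal zone genes, Cd1d1 stood lowest. Cd1d1, which encodes the lipid-presenting molecule that marginal zone B cells carry at high level, read 9.08, 9.24, 9.46 and 9.38 under the B10.D2 donor and 9.14, 8.87, 8.94 and 9.03 under the DBA donor. Its groups overlapped only in their first replicates, B10.D2 donor at 9.08 under DBA donor at 9.14, and the difference was -0.30 ± 0.11 (SE), with an interval of -0.54 to -0.06 and a limma adjusted p of 0.250. Cd1d1 did not run low on B10.D2 donor replicate 4, and the difference without that array was -0.27.

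Cr2, which encodes the complement receptors CD21 and CD35 of marginal zone B cells, follicular B cells and follicular dendritic cells, read 7.05, 6.79, 7.11 and 7.36 under the B10.D2 donor and 7.07, 6.82, 6.92 and 6.97 under the DBA donor. B10.D2 donor replicate 4 was the highest array and B10.D2 donor replicate 2 the lowest, so the groups overlapped, and the difference was -0.13 with an interval of -0.40 to 0.14 (limma adjusted p = 0.659). It was -0.04 without B10.D2 donor replicate 4. A second Cr2 probe was not well above background on enough arrays to be tested.

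Dtx1, a target of Notch2 signalling that is high in marginal zone B cells, read 8.56, 8.60, 8.42 and 8.30 under the B10.D2 donor and 8.50, 8.04, 8.04 and 8.44 under the DBA donor. DBA donor replicates 2 and 3 were lowest, the groups overlapped, and the difference was -0.21 with an interval of -0.50 to 0.07 (limma adjusted p = 0.483), or -0.27 without B10.D2 donor replicate 4. Notch2 itself, the receptor that marginal zone B cells need, had 2 probes, and neither was well above background on any array. The raw intensities of its first probe were 114.9, 123.6, 113.2 and 119.7 under the B10.D2 donor and 108.6, 115.3, 105.8 and 109.4 under the DBA donor, and those of the second were 109.5, 121.9, 117.9 and 113.9 and then 107.1, 108.1, 102.0 and 116.1. Cd9, a tetraspanin of marginal zone B cells and plasma cells that platelets carry as well, differed by -0.09, or by -0.18 without B10.D2 donor replicate 4. Over the 4 marginal zone genes tested, all differences were negative, and the median was -0.17, or -0.23 without B10.D2 donor replicate 4.

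Blr1, now Cxcr5, the receptor that draws B cells into follicles toward Cxcl13, read 10.12, 10.24, 10.11 and 9.89 under the B10.D2 donor and 10.02, 9.56, 9.81 and 9.95 under the DBA donor. The 3 highest values were B10.D2 donor replicates 1 to 3, and B10.D2 donor replicate 4 lay within the DBA donor range. The difference was -0.26 with an interval of -0.52 to 0.01 (limma adjusted p = 0.361). Its other 2 probes differed by -0.33 and -0.29, with unadjusted limma p of 0.0238 and 0.0409. The brightest Blr1 probe differed by -0.32 without B10.D2 donor replicate 4. Ltbr, the lymphotoxin receptor of stromal and myeloid cells, through which B cells maintain follicles, differed by -0.31 with an interval of -0.76 to 0.15 and was detected on 7 of the 8 arrays. The Ltbr difference was -0.34 without B10.D2 donor replicate 4. Its values spread widely, with B10.D2 donor replicate 2 at 6.08 and DBA donor replicate 2 at 4.84.

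**Figure D3:**
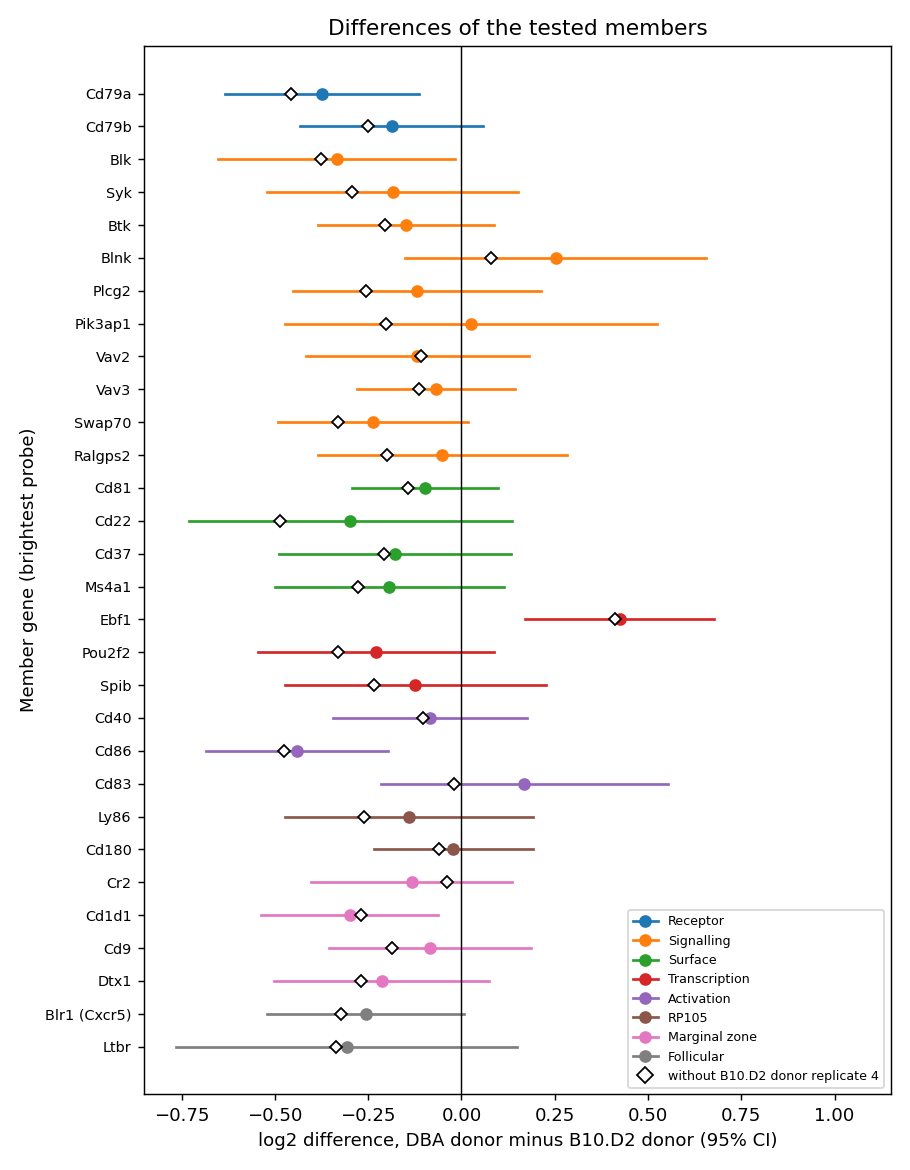
Difference of each of the 30 tested genes (filled points, DBA donor minus B10.D2 donor, normalized log2 intensity) with its 95% confidence interval, coloured by role, and the difference without B10.D2 donor replicate 4 (open diamonds). Of the 30 filled points 26 lie below 0, and without that array 28 do.

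Signalling, marginal zone and follicular genes were then set side by side. Their median differences were -0.12 over 10 signalling genes, -0.17 over 4 marginal zone genes and -0.28 over 2 follicular genes. All lay below the -0.02 of all named genes. The roles were not tested against each other, since the genes of a role are not replicates of a condition. Without B10.D2 donor replicate 4 the same medians were -0.20, -0.23 and -0.33. The order of the medians turned with B10.D2 donor replicate 2 left out. They were then -0.09 for signalling, -0.20 for marginal zone and -0.17 for follicular genes. The order held with any other single array left out. With DBA donor replicate 2 left out the medians were -0.09, -0.12 and -0.17. On B10.D2 donor replicate 4 the 10 signalling genes had a median deviation of -0.20 from their means over the 8 arrays, while the marginal zone genes had 0.09 and the follicular genes 0.00. The marginal zone value rests on Cr2 and Cd1d1, which lay 0.38 and 0.12 above the mean of the other 3 arrays of the group, while Cd9 and Dtx1 lay at -0.40 and -0.22 and Blr1 at -0.26. This was not tested. On DBA donor replicate 2 the medians of these roles were -0.21, -0.23 and -0.48.

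**Figure D4:**
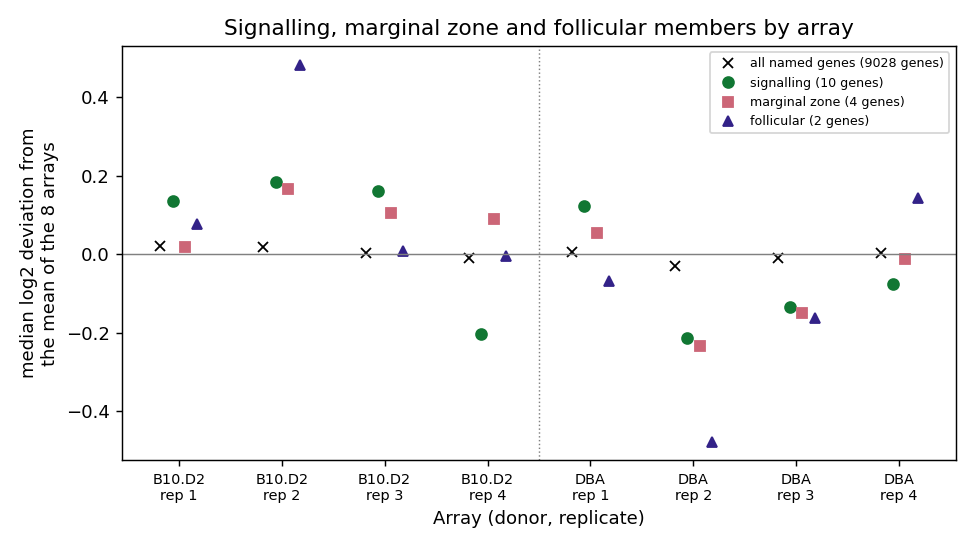
Median deviation from the mean of the 8 arrays (normalized log2 intensity) for the 10 signalling, 4 marginal zone and 2 follicular genes and for all 9028 named genes, on each array. On B10.D2 donor replicate 4 the signalling genes lie at -0.20 and the marginal zone genes at 0.09, while on DBA donor replicate 2 both lie below -0.2.

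Other genes of the same pathways were counted from lists outside the 38 genes. The shares over all named genes were those given above, 54% negative and 8.15% lower at an unadjusted p under 0.05. Of 16 further receptor pathway genes tested, 13 had negative differences, with a median of -0.14, and none passed an adjusted p under 0.05 in limma. Ptpn6, the phosphatase SHP-1 that Cd22 recruits, differed by -0.22, Prkcb, the protein kinase C of the receptor pathway, by -0.25, and Nfatc1, a calcium-regulated transcription factor, by -0.35, the 3 lower at an unadjusted p under 0.05. All 6 further follicular genes tested were negative, with a median of -0.29. Klf2, a factor of resting lymphocytes that T cells use as well, differed by -0.51, and Lta and Ltb, the lymphotoxins that bind lymphotoxin receptors, by -0.44 and -0.36, with limma adjusted p of 0.203, 0.207 and 0.287. Of 6 further marginal zone genes tested, 4 were negative with a median of -0.19, and 2 of these had an unadjusted p under 0.05. These were Dll1, the stromal ligand of Notch2, at -0.35, and Hes1, a Notch target, at -0.30, the latter with no overlap between the groups (4.76% of all named genes). The largest difference of that list was positive, 0.41 for Mzb1, which plasma cells carry at high level and which was 0.10 without B10.D2 donor replicate 4. It is named after its value was seen.

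These lists were also counted without B10.D2 donor replicate 4, where 11% of all named genes were lower at an unadjusted p under 0.05, and limma again called none. The receptor pathway list then had 13 of 16 negative, a median of -0.21 and 7 lower at an unadjusted p under 0.05. The 7 were Nfatc1 (-0.42), Pik3cd (-0.34), Lat2 (-0.34), Prkcb (-0.31), Fcgr2b (-0.31), Inpp5d (-0.28) and Ptpn6 (-0.25). The follicular list had 6 of 6 negative, a median of -0.39 and 4 lower. These were Klf2 at -0.60, Lta at -0.53, Ltb at -0.39 and Tnfrsf13c at -0.38. The marginal zone list had 5 of 6 negative, a median of -0.20 and 3 lower, Mfng at -0.47, Dll1 at -0.37 and Hes1 at -0.31. This count was chosen after seeing the data.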

How the data were processed

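Spleen RNA of 8 arrays was grouped by the donor in the sample titles (4 DBA, 4 B10.D2). Per the file headers, the deposited non-normalized table holds mean bead intensity per probe and array, and a detection p-value against that array's negative controls. A second deposited table holds intensity that the authors processed further, by steps not given in the sources used here. It is linear, reaches -16.5, has array medians of 13.9 to 14 and keeps each array's rank order, and is used as an alternative source of values. GenomeStudio is the tool in the submitters' processing notes. The probes' genome build, the slides and the scans are likewise not given.

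Intensity was background-corrected by normexp from the detection p-values with an offset of 16, put on log2 and quantile-normalized (limma 3.58.1, R 4.3.3). This offset narrows the differences of weak probes. Of 25697 probes, 1719 had no listed gene. The filter asked for a detection p under 0.05 on 4 or more of the 8 arrays, whatever their group, and left 12950 probes and 9028 named genes. Of the 56 probes of the B cell genes, 48 were tested. Differences (DBA donor minus B10.D2 donor) were fitted with limma's lmFit and eBayes, two-sided, with Benjamini-Hochberg adjustment across the 12950 probes. The probe with the highest mean stands for a gene, and of 9 genes with several tested probes 5 had the same sign on all of them (Swap70, Ralgps2, Cd22 and Cd86 did not). Marker sums add normalized levels on the linear scale.

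The genes and the other lists were chosen with earlier results of these data known. Values on every array are given for 12 genes picked for their roles and for any other with an unadjusted p under 0.05 or groups that do not overlap, and the rest are given by their difference. On simulated data (12950 probes, 50 changed per size) the fit found 54% of 1.5-fold changes, 84% of 2-fold, 94% of 3-fold and 100% of 4-fold. It called 5 unchanged probes. The noise was drawn independently for each probe, without the shifts of whole arrays seen here, so these rates may be too high for these arrays. Precision is limited by the number of arrays. Alternatives covered background, normalization, source of values, filter, probe summary, variance model, array weights, replicate block, threshold and loss of each array. Figures used matplotlib 3.10.9.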

Additional observations from a re-analysis of the deposited data

Results flagged for a closer look

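Within a group of 4 arrays, an array was picked out where its gap to the nearest other, divided by the span of the 4 values, exceeded Dixon's 95% critical value. Of 104 groups examined (genes and list levels), 6 held such an array, where chance at 1 in 20 gives 5.2, and 4 of the 6 were B10.D2 donor replicate 4. On that array Swap70 was lowest, at a normalized log2 intensity of 10.42 against 10.77 to 10.82 on the other 3. Cd83 was lowest there as well, at 10.30 against 11.03 to 11.08. The mean level of the 10 signalling genes was also lowest there, at 8.25 against 8.63 to 8.69. The log2 summed level of the pancreas genes was highest there, at 13.30 against 8.97 to 9.22. The mean level of the 2 follicular genes was highest on B10.D2 donor replicate 2, at 8.16 against 7.67 to 7.76. The log2 summed level of the pancreas genes was lowest on DBA donor replicate 1, at 9.13 against 9.37 to 9.39 on the other DBA donor arrays.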

How the results depend on the processing

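The 20 alternatives left out each array in turn (8 settings) or changed another choice (12 settings). The median of the B cell genes and those of the signalling, marginal zone and follicular genes stayed negative in all 20. Of 598 single-gene values, 18 changed sign. Not every setting could alter a sign. The threshold, filter, variance model and replicate block settings keep the difference of a tested gene as it was. The threshold setting also keeps its unadjusted p. Leaving out 1 array gave 0 to 11 called probes over all tested probes (9 with all arrays), 0 called B cell genes, 2 to 9 B cell genes lower at an unadjusted p under 0.05 (4 with all arrays), 23 to 28 negative differences and a median of -0.24 to -0.09. Of the B10.D2 donor arrays, the loss of replicate 2 left 0 called probes and that of replicate 3 left 2. Of the DBA donor arrays, the loss of replicate 1 left 2, that of replicate 2 left 4, and that of replicate 3 or 4 left 0. Where limma called 0, between 1212 and 1974 probes had an unadjusted p under 0.05. The lower B cell genes numbered 2 with B10.D2 donor replicate 3 removed, 9 with replicate 4 of that group removed and 8 with DBA donor replicate 1 removed, where 6.21%, 11% and 8.39% of all named genes were lower.

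Median scaling in place of quantile normalization moved the median of all named genes to -0.18. It called 625 probes, 27 higher and 598 lower, against 8 higher and 1 lower. It called 3 B cell genes (Cd79a, Cd86 and Cd1d1), put 22 lower at an unadjusted p under 0.05 (30.7% of all named genes), and gave medians of -0.32 over the 30 genes and -0.39 over the marginal zone genes. Relative to the shifted median of all named genes the B cell median was -0.14, with Cd79a at -0.35, Cd86 at -0.44, Cd1d1 at -0.34 and Ebf1 at 0.52. Array weights called 45 probes, none of a B cell gene, and put 7 B cell genes lower at an unadjusted p under 0.05 (11.4% of all named genes). An adjusted p under 0.1 called 35 probes, none of a B cell gene. With no filter on dim probes 0 probes were called by limma, with 2758 at an unadjusted p under 0.05. The cause of these changes was not tested.

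Pik3ap1 turned negative with no background correction (-0.00083), median scaling (-0.13), array weights (-0.11) and both low arrays left out (-0.11), and with 1 array left out it ran from -0.20 to 0.17. With 1 array left out Plcg2 ran from -0.26 to 0.0021, Ralgps2 from -0.20 to 0.022, Cd40 from -0.16 to 0.013, Cd83 from -0.020 to 0.25, Cd180 from -0.063 to 0.044 and Cd9 from -0.19 to 0.0053. With both low arrays left out Cd180 was 0.0069 and Cr2 0.0035. Cd86 averaged over its probes differed by -0.21, with an unadjusted limma p of 0.067.

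The replicate block, a fit that pairs arrays by replicate number, called 7 probes and no B cell gene, and left 3 B cell genes (Cd79a, Cd86 and Cd1d1) lower at an unadjusted p under 0.05, where 6.85% of all named genes were. Deviations of same-numbered arrays correlated at 0.341, -0.354, 0.0469 and 0.0403. These values cannot show whether same-numbered arrays share more than a number, and the labels state no pairing. Dim probes limit Syk, Ebf1, Vav2, Pik3ap1 and Ltbr, and Pax5 and Notch2 gave no difference.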
